A study of Mus musculus with 7 samples.

Results

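The cartilage collagen genes were taken as the 7 genes Col2a1, Col9a1, Col9a2, Col9a3, Col11a1, Col11a2 and Col27a1, out of 22208 protein-coding genes placed on chromosomes 1 to 19 and X of the mouse. The genes were chosen by name. In mm9, the genes lie on the plus strand with Col9a1 at chr1:24184449-24259577, Col9a2 at chr4:120711990-120727927, Col9a3 at chr2:180332495-180356894, Col11a1 at chr3:113733458-113923636, Col11a2 at chr17:34176382-34203630 and Col27a1 at chr4:62875038-62996025, except Col2a1 at chr15:97806033-97835155 on the minus strand. Their peaks were found by position, at most 1 kb from the transcription start (TSS), in the gene body, or in the 50 kb on either side of the gene. All 7 genes had peaks in the chondrocyte lists, with 39 peaks in chondrocyte H3K27ac replicate 1, 82 in replicate 2, 62 in chondrocyte H3K4me2, 66 in WT and 64 in the deletion list. The fibroblast list held 10 peaks in the same regions.

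These genes encode the fibrils of cartilage. Type II collagen, from Col2a1, is the main fibril protein, and the type XI chains encoded by Col11a1 and Col11a2 are built into the same fibril and govern its width. Type IX collagen, from Col9a1, Col9a2 and Col9a3, sits on the fibril surface and links it to other matrix, and type XXVII collagen, from Col27a1, is a fibrillar collagen of growing cartilage. The transcription factor SOX9 is known to activate several of these genes through enhancers in and around them. H3K27ac marks active promoters and enhancers, and H3K4me2 marks promoters and enhancers more broadly.

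The study, of Sox9 enhancers, had 7 samples, and the ChIP-Seq peak lists of 6 were used. Primary chondrocytes from the rib cartilage of newborn mice gave an H3K27ac library in 2 replicates and an H3K4me2 library. Dermal fibroblasts, also primary and from newborn dorsal skin, gave the H3K27ac library that served as the negative control. A further pair of chondrocyte H3K27ac libraries, 1 of each genotype, came from WT mice and from mice labelled E160(delta/delta);E308(delta/delta), called the deletion here, in which 2 enhancers upstream of Sox9 are missing from both alleles. The cells were cultured, and rib cartilage and skin can each hold other cell types. The methods call the H3K27ac replicates biological replicates, and WT and deletion chondrocytes came from littermates. An input library was not analysed here. With 1 library in every group but chondrocyte H3K27ac, differences between groups stand without replication and are reported without a test.

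The lists held between 19454 peaks in fibroblasts and 66355 in H3K4me2, and the depth of the libraries is unknown because they carry no read numbers. Replicate 2 carried GRCm38 coordinates and the other 5 lists mm9 coordinates, so that replicate 2 was compared with the others by distance from each TSS. Neither deleted enhancer held a peak in the deletion list, and both held one in each of the other mm9 lists, fibroblasts included. The paper describes the signal at both as very weak in dermal fibroblasts. Replicate 1, H3K4me2 and fibroblasts came in a score-only format with no peak wider than 8512 bp, whereas the widest peak was 46443 bp in replicate 2 and 29892 bp in WT. Of 43 WT peaks at least 10 kb wide, 19 had no peak in replicate 1, 22 none in H3K4me2 and 20 none in fibroblasts, and all 43 had one in the deletion list. Among WT peaks of 5 to 10 kb, the class of the Col2a1 promoter peak, these shares were 9.23%, 22.2% and 16.3%. Among WT peaks of 2 to 5 kb they were 9.44%, 7.04% and 20.9%. The fibroblast list had no promoter peak at Col1a1, Col1a2 or Col3a1, the fibril collagens of skin. From 1 kb before the TSS to the gene end, its peaks covered 8.44% of Col1a2 and 0% of Col1a1 and Col3a1. By promoter, the fibroblast list marked 5 of 9 dermal fibroblast markers and 1 of 11 chondrocyte markers. WT marked 8 of the same 9 and 7 of the same 11. The paper, by contrast, describes peaks at Col1a1 in its dermal fibroblast tracks. It also describes strong chondrocyte ChIP-Seq peaks at the promoter and gene body of Col2a1. The part of the score-only format in an absent peak was not tested.

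H3K27ac peaks marked the promoters of the cartilage collagen genes in the chondrocyte lists and not in the fibroblast list. WT and the deletion list had a peak within 1 kb of the TSS of all 7 genes, as did replicate 2. Across all genes, 47.2% of promoters were marked in WT, 44.4% in the deletion list and 43.1% in replicate 2. Replicate 1 marked 5 of the 7, against 41.7% of all promoters, and lacked a peak at Col2a1 and Col11a1. The replicates together marked 6 ± 1.41 of the 7 genes (mean ± SD, n = 2). Their lists differ in build and format, so that replicate and list format cannot be told apart in this spread. The H3K4me2 list marked the same 5 genes as replicate 1, against 62.7% of all promoters. These H3K4me2 peaks ranked between the highest-scoring 37.2% of that list, at Col9a2, and the highest-scoring 88.4%, at Col11a2, and 0 of the 7 genes were marked when each list was cut to its 19454 highest-scoring peaks.

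Fibroblasts marked 0 of the 7 promoters, where 44.7% of all promoters were marked. A promoter peak in WT and none in fibroblasts was found for 7 of the 7 collagen genes and for 4.56% of all genes. It was also found for 6 of 11 chondrocyte markers, 4 of 9 dermal fibroblast markers and 3 of 10 connective tissue collagens. The count for fibroblasts depends on which start of Col27a1 is used. The annotated gene start belongs to a transcript with a retained intron, and the start of the coding transcript lies 1.43 kb further on, where the fibroblast list had a peak of 773 bp. With any coding start, fibroblasts marked 1 of the 7 genes, and 6 of the 7 were then marked in WT and not in fibroblasts. The counts of the other lists were as above.

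The WT promoter peaks at Col2a1 and Col11a1 were the widest of the 7, at 7110 bp and 10456 bp, and these were the genes with no promoter peak in replicate 1 and H3K4me2. Among all genes whose WT promoter peak was at least 5 kb wide, 19.9% had no fibroblast promoter peak. Among those with a WT peak of 2 to 5 kb, the class of Col9a1, Col9a2, Col11a2 and Col27a1, this share was 4.13%, and below 2 kb, the class of Col9a3, it was 11.3%. Left to the 5 genes with a WT peak under 5 kb, the promoter counts were 5 in replicate 1, 5 in H3K4me2 and 0 in fibroblasts.

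**Figure D1:**
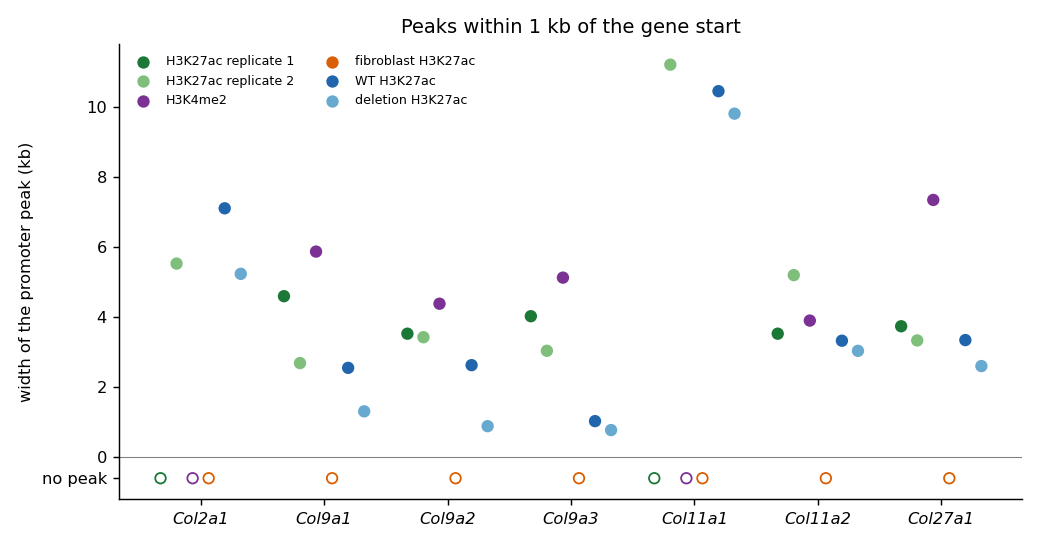
Width in kb of the highest-scoring peak within 1 kb of the TSS of each gene, with 1 point for each of the 6 peak lists and open points for lists without a peak. The WT, deletion and replicate 2 peaks at Col11a1 lie between 9814 and 11213 bp, and every fibroblast point is open.

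The upstream sequences of 3 starts are shown because they differ in CpG content while each lay under a chondrocyte peak. RefSeq promoter sequences (GRCm38.p6) were matched for 5 of the 7 genes, with 2 starts for Col9a1. Each line gives the 250 bases before the start, 5′ to 3′ on the plus strand, with CG dinucleotides in capitals. The starts are those of the RefSeq promoter table. The Col27a1 stretch lies before a coding start more than 1 kb after the gene start used for the promoter counts.
Col9a1, long form, chr1:24177360-24177609: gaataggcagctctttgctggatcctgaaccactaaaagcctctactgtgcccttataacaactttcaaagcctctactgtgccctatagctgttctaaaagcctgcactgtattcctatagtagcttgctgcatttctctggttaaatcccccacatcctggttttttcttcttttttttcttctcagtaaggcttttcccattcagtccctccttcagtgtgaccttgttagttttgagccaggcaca
Col9a1, short form, chr1:24194953-24195202: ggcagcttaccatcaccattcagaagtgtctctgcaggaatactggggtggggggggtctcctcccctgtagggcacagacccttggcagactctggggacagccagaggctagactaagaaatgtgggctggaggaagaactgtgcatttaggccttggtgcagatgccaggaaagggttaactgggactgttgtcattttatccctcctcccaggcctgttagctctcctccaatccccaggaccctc
Col27a1, chr4:63215162-63215411: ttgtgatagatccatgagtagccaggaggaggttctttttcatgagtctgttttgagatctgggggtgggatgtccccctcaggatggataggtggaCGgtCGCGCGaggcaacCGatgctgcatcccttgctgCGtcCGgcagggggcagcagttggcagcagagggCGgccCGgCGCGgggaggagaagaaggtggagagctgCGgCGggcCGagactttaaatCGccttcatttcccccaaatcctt
Neither Col9a1 start has a CG dinucleotide in this stretch, which holds for 7.87% of 32851 RefSeq promoters. The Col27a1 stretch has 15, beside a median of 6 over all promoters, with quartiles of 2 and 16. In replicate 2, whose coordinates are on this build, a peak of 2690 bp covered the long-form start of Col9a1 and a peak of 5103 bp the short-form start. A peak of 3336 bp covered the Col27a1 stretch. The SOX letters ACAAAG or ACAATG, on either strand, occur in 0 of the 6 member stretches and in 25.2% of all promoters.

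Col2a1 had the largest covered share of the 7 genes in WT, replicate 2 and the deletion list. Peaks covered 93.2% of its span in WT, counted from 1 kb before the TSS to the end of the gene and so with the promoter peak included. This placed Col2a1 in the highest 0.0502% of 13957 genes with a span of at least 10 kb, where the median gene had 2.15%. The span was covered to 84.6% in replicate 2, where the median of 12463 genes was 0.882%, and to 70.4% in the deletion list, where the median was 1.28%. It was covered to 0% in replicate 1, H3K4me2 and fibroblasts, the 3 score-only lists. In replicate 1 and H3K4me2 the largest share was that of Col9a3, at 39.3% and 32.8%. The 2 chondrocyte H3K27ac replicates differed at this gene by nearly its whole length.

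**Figure D2:**
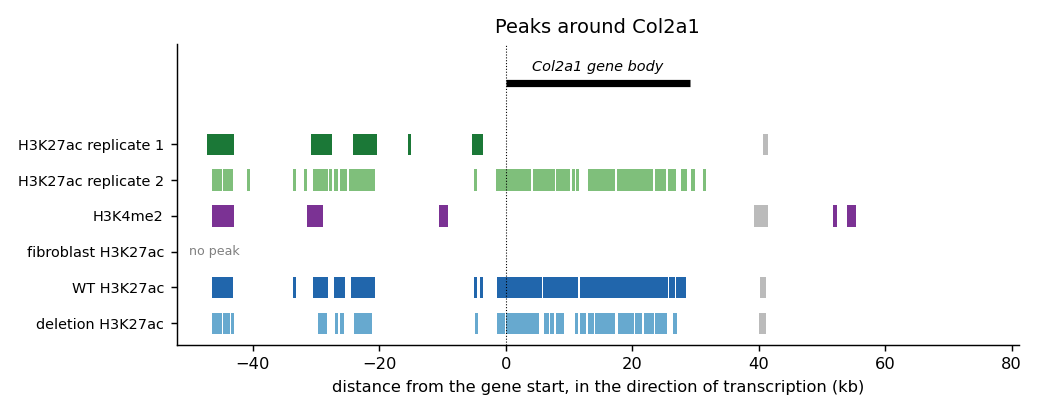
Peaks around Col2a1 in the 6 lists against the distance from the TSS in kb, in the direction of transcription, with grey bars for peaks at the promoter of a neighbouring gene and the black bar for the gene body. WT, deletion and replicate 2 peaks fill the gene body, replicate 1 has none there, and fibroblasts have no peak in the region.

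In WT the Col2a1 body was covered by a promoter peak of 7110 bp and by peaks of 5588 bp and 13878 bp that followed it closely. The same stretches were cut into 2, 4 and 8 peaks in the deletion list. Fold enrichment at the summit was 25.1 in WT and 12.7 in the deletion at the promoter, 11.0 and 6.44 in the body peak at +8.7 kb, and 9.43 and 7.74 in that at +18.7 kb. The upstream WT peak at −44.8 kb had a higher fold enrichment than either body peak, at 19.2.

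Upstream of Col2a1, replicate 1 did have peaks. Loci were formed by chaining peaks of the 5 mm9 lists that overlapped by at least 1 bp, and their midpoints are given from the TSS. The locus at −45.1 kb, in an intron of Senp1, was in both chondrocyte H3K27ac replicates, H3K4me2, WT and the deletion list. It ranked in the highest-scoring 5.47% of replicate 1, 25.5% of H3K4me2, 18.1% of WT and 28.1% of the deletion list. The locus at −29.4 kb was in the same 5 chondrocyte lists, at 70.3%, 66.8%, 32.6% and 50.2% in the mm9 lists in that order. The loci at −22.4 kb and −4.4 kb were in the H3K27ac lists without an H3K4me2 peak, and that at −22.4 kb ranked in the highest-scoring 21.0% of replicate 1 and 21.2% of WT. The locus at −26.3 kb was in WT, the deletion list and replicate 2. Fibroblasts had no peak within 50 kb of Col2a1.

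The type XI genes differed from each other in their surroundings. Col11a1, a gene of 190179 bp, had 12 distal loci, and 3 of these were in all 4 mm9 chondrocyte lists. The strongest, at −30.0 kb, ranked in the highest-scoring 7.08% of replicate 1, 43.6% of H3K4me2, 21.6% of WT and 43.5% of the deletion list. The others lay in introns at +23.3 kb and +68.4 kb. A locus at −39.3 kb was in replicate 1, H3K4me2, WT and replicate 2 and not in the deletion list. The promoter domain of Col11a1 ranked in the highest-scoring 2.13% of WT and 3.79% of the deletion list, above the promoter peaks of the other 6 genes in both, and was also the strongest of the 7 in replicate 2, at 6.92%. Fibroblasts had no peak near Col11a1.

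Col11a2 lies among closely spaced genes of the major histocompatibility region. Its promoter peak ranked in the highest-scoring 1.48% of replicate 1 and 27.8% of WT. It had 4 distal loci, and 0 of them were in replicate 1. The 3 fibroblast peaks within 50 kb of Col11a2 were all at the promoters of other genes, H2-K1, Ring1 and the pair Rxrb and Slc39a7. Replicate 2 had 5 peaks of 269 to 1064 bp in the body of Col11a2, and WT had 1.

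Col27a1 had 14 distal loci along a gene of 120988 bp. The intron locus at +39.9 kb was in all the chondrocyte lists, ranking in the highest-scoring 59.0% of replicate 1, 77.5% of H3K4me2, 30.5% of WT and 56.6% of the deletion list. Upstream loci at −28.1 kb and −26.5 kb were in both replicates, WT and the deletion list and not in H3K4me2. Col27a1 also held 2 of the 3 distal loci that had a fibroblast peak, at +68.2 kb and +77.0 kb. Both were in WT and in neither replicate nor the deletion list, that at +77.0 kb was also in H3K4me2, and their fibroblast peaks ranked at 83.0% and 97.5% of that list.

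Col9a1 has 2 groups of coding transcript starts, those of the long form at the gene start and those of the short form, known from the eye, at 17.58 and 17.77 kb. Both were marked in all 5 chondrocyte lists. In WT the peak at the short-form start had a fold enrichment of 13.9, beside 7.97 at the gene start, and in the deletion list the values were 14.4 and 5.47. In replicate 2 the order was the other way, with 6.45 at the short-form start and 7.81 at the gene start. Replicate 1 and H3K4me2 also ranked the gene start higher, at 17.5% against 57.0% and at 61.8% against 71.3%. Further loci in introns at +8.1 kb and +53.4 kb were in replicate 1, replicate 2, WT and the deletion list, and the locus at +34.1 kb was in replicate 1, replicate 2 and H3K4me2 alone. Fibroblasts had no peak near Col9a1.

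**Figure D3:**
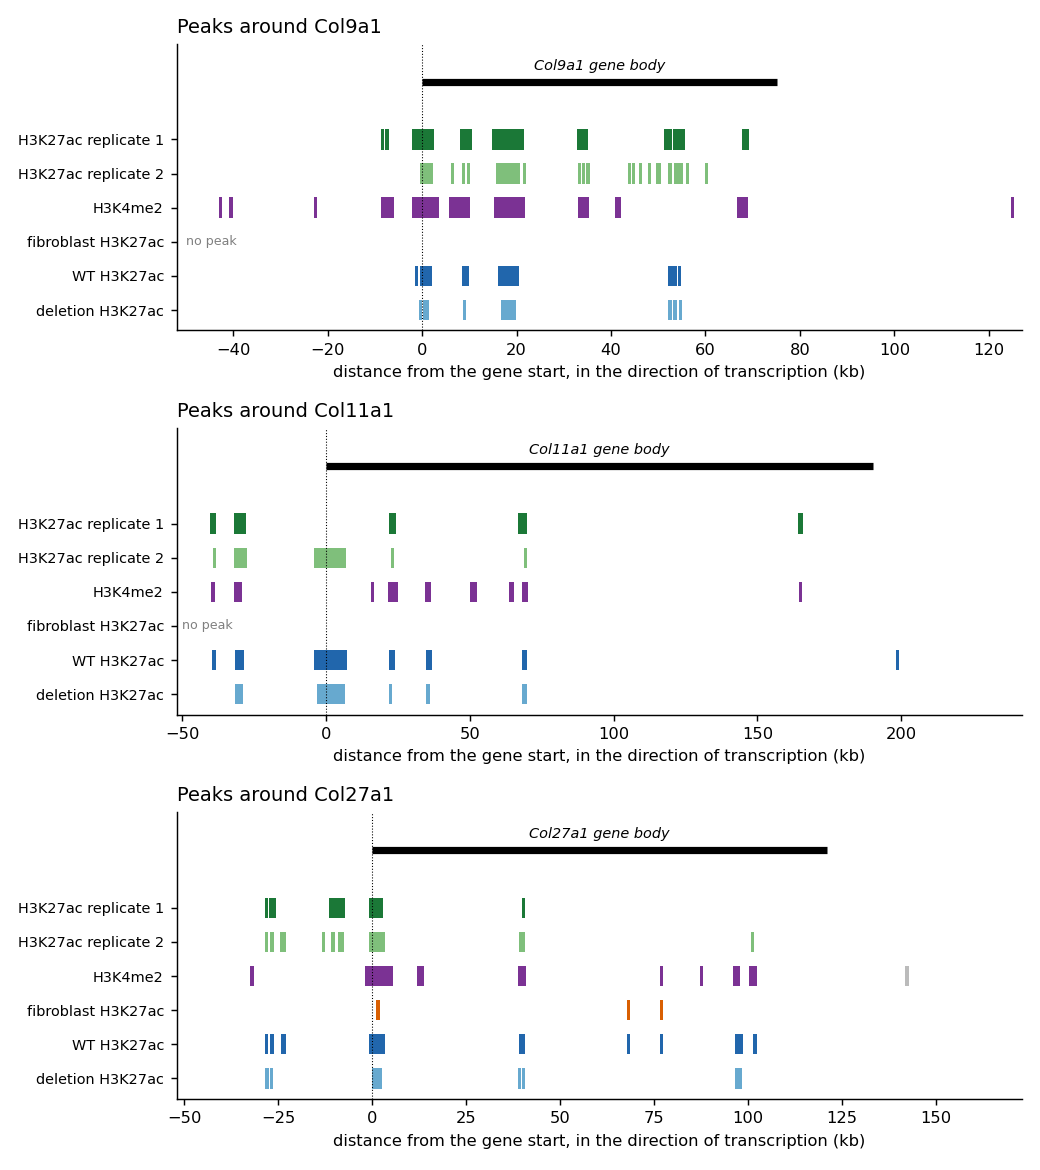
Peaks around Col9a1, Col11a1 and Col27a1 in the 6 lists against the distance from the TSS in kb, drawn as for Col2a1. The fibroblast row is empty for Col9a1 and Col11a1 and holds 3 peaks for Col27a1, all in the gene body, and the promoter peak of Col11a1 is seen in replicate 2, WT and the deletion list.

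Col9a2, the shortest of the 7 genes, had its strongest mark at the promoter, which ranked in the highest-scoring 5.09% of replicate 1 and 41.0% of WT. Of its 7 distal loci, the best placed in any list was at −37.2 kb, in the highest-scoring 49.3% of H3K4me2, and 0 of the 7 were in the deletion list. The peaks at −23.2 kb and +58.2 kb, which fibroblasts shared, were those of the Smap2 and Zmpste24 promoters. At Col9a3, peaks covered 39.3% of the span in replicate 1, 40.3% in replicate 2, 32.8% in H3K4me2, 22.3% in WT and 9.88% in the deletion list. An intron locus at +12.7 kb was in all the chondrocyte lists. The locus at −14.1 kb was in all 6 lists, fibroblasts included, and had starts of 5 annotated transcripts of the gene 1600027N09Rik in it or within 1 kb.

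**Figure D4:**
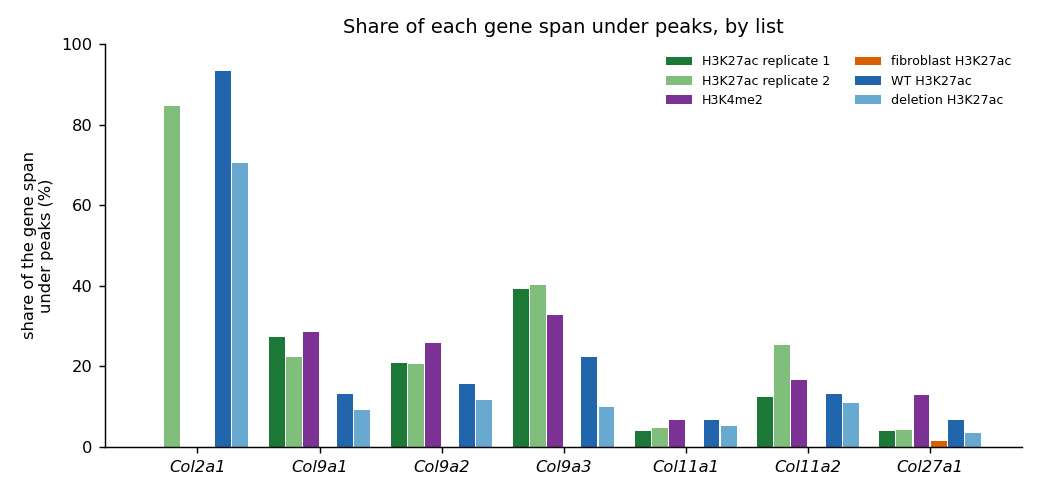
Share in percent of each gene span, from 1 kb before the TSS to the gene end, that lies under peaks, with 1 bar for each of the 6 lists. Col2a1 reaches 93.2% in WT, 84.6% in replicate 2 and 70.4% in the deletion list with no bar in the other lists, and the only fibroblast bar is that of Col27a1, at 1.36%.

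The strongest WT distal peak of each gene is shown by sequence, to show the distal stretch with the highest WT score near each gene. The comparisons that follow use all distal peaks. Each line gives the summit base, in capitals, and 50 bases on either side of it on the plus strand of mm9, with the midpoint of the peak from the TSS.
Col2a1, −44.8 kb, chr15:97879076-97879176: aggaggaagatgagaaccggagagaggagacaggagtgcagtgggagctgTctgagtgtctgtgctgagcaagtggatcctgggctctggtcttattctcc
Col9a1, +18.6 kb, chr1:24202431-24202531: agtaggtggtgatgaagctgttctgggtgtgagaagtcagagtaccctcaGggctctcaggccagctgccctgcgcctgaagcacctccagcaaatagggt
Col9a2, −27.6 kb, chr4:120684308-120684408: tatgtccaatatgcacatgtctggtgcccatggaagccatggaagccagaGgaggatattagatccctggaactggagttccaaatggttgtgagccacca
Col9a3, −14.9 kb, chr2:180317550-180317650: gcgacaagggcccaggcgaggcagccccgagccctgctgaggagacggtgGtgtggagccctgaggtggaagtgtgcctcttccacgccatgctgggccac
Col11a1, −30.2 kb, chr3:113702692-113702792: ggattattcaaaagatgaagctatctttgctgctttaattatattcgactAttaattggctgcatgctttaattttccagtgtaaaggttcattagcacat
Col11a2, +71.4 kb, chr17:34247729-34247829: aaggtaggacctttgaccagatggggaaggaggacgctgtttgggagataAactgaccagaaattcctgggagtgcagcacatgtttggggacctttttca
Col27a1, +39.9 kb, chr4:62915213-62915313: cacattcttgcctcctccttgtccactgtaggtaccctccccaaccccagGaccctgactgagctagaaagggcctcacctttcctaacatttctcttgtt
The peaks at Col2a1, Col9a1, Col9a3 and Col11a1 had fold enrichments of 19.2, 13.9, 11.6 and 17.3 in WT, and that of Col27a1 11.0. The strongest distal peaks of Col9a2 and Col11a2 were weak, at 4.87 and 5.6. The Col9a3 window lies in an exon of 1600027N09Rik, and the other 6 windows lie outside annotated exons. The Col9a1 window lies within 1 kb of its short-form start.

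None of these 7 windows holds the SOX letters ACAAAG or ACAATG on either strand. Over all 50 WT distal peaks of the 7 genes, 8 windows of this length did (16.0%), beside 12.9% of 22956 WT distal windows in all. The AP-1 letters TGANTCA occurred in 0 of the 50 windows and in 2.57% of all. The head-to-head pair of SOX letters, with 3 to 5 bases between, occurred in 0 of the 50 and in 3 of 22956. Over whole peaks, 32 of the 50 held SOX letters (64.0%, median width 489.5 bp), beside 57.0% of all (median width 537 bp). The 4 SOX-letter windows whose peak was also in the deletion list are printed, with the letters in capitals.
Col2a1, −4.7 kb, chr15:97839776-97839876: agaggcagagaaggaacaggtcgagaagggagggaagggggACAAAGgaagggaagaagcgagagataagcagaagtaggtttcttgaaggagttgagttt
Col2a1, −26.3 kb, chr15:97861052-97861152: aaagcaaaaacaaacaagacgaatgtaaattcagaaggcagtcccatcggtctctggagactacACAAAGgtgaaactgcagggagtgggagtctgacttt
Col11a1, +35.2 kb, chr3:113769048-113769148: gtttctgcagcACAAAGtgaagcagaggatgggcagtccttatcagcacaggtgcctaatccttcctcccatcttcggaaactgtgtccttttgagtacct
Col27a1, −28.1 kb, chr4:62847142-62847242: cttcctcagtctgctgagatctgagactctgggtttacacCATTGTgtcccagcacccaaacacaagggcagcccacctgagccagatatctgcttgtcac
These 4 peaks ranked between the highest-scoring 39.7% and 48.1% of WT.

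Distal peaks were those with no gene start of any protein-coding gene within 1 kb. Nearly all those of the collagen genes were without a fibroblast peak. In replicate 1 this held for 27 of 28 distal peaks (96.4%, exact 95% interval 81.7 to 99.9%), beside 70.9% of all distal peaks of that list. In WT it held for 47 of 50 (94.0%, 83.5 to 98.7%), beside 74.7% of all. These Clopper-Pearson intervals cover counting error only and treat peaks as independent, although neighbouring peaks of a gene are not. The exception in replicate 1 was the peak at the 1600027N09Rik start near Col9a3. The fibroblast list had 4 distal peaks in these regions. Of these, 0 lacked a WT peak (0 to 60.2%), beside 45.3% of all 10098 distal fibroblast peaks. Among the 4 was the 773 bp peak at the coding start of Col27a1, counted as distal because it lies over 1 kb from the gene start.

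In replicate 1, 19 of 28 collagen distal peaks had an H3K4me2 peak (67.9%, 47.6 to 84.1%), beside 86.6% of all distal peaks. In WT, 22 of 50 did (44.0%, 30.0 to 58.7%), beside 71.7%. The WT peaks without H3K4me2 included 11 of the 13 at Col2a1, where the H3K4me2 list had no peak in the gene body. Conversely, 21 of the 47 H3K4me2 distal peaks had no peak in replicate 1 or WT (44.7%, 30.2 to 59.9%), beside 64.5% of all. The H3K4me2 list is score-only, and 22 of the 43 WT peaks at least 10 kb wide had no peak in it. The share was 22.2% for WT peaks of 5 to 10 kb and 7.04% for those of 2 to 5 kb. For chondrocytes, the paper describes strong ChIP-Seq peaks at the Col2a1 promoter and gene body. The part of the list format in these shares was not tested.

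By locus, the 7 genes had 71 distal loci, of which 42 were centred in introns, 27 between genes and 2 in exons. Col2a1 had 16, Col27a1 14, Col11a1 12, Col9a1 11, Col9a2 and Col9a3 7 each, and Col11a2 4. WT had a peak at 40 of the 71, replicate 1 at 25, the deletion list at 23, H3K4me2 at 43 and fibroblasts at 3, and 35 had a replicate 2 peak within 1 kb by distance from the TSS. A total of 10 loci were in replicate 1, WT, H3K4me2 and the deletion list, and all 10 also had a replicate 2 peak. These lay at −45.1 and −29.4 kb for Col2a1, +8.1 and +18.3 kb for Col9a1, −14.1 and +12.7 kb for Col9a3, −30.0, +23.3 and +68.4 kb for Col11a1 and +39.9 kb for Col27a1. Col9a2 and Col11a2 had none. Another 22 loci were in H3K4me2 alone among the mm9 lists and 13 in WT alone. Loci were formed only around these 7 genes, so that the locus counts have no share over all genes beside them. Only peaks reaching within 50 kb of a gene entered the loci. The Col11a2 locus at +75.9 kb, among the 22, runs past that limit, so that peaks lying wholly beyond it were not counted. An annotated transcript start of the gene itself lay within 1 kb of 7 of the 71, and a start of another gene within 1 kb of 3.

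The distal peaks of these genes that the deletion list lacked were mostly the weaker ones, as over all distal peaks. Of 50 WT distal peaks, 25 had no deletion-list peak (50%, 35.5 to 64.5%), and the share over all distal peaks was 49.2%. Among peaks in the higher-scoring 50% of WT, 1 of 19 collagen peaks and 4.13% of all distal peaks were without one. Among the lower-scoring, it was 24 of 31 and 73.4%. The exception in the higher-scoring group was the Col27a1 peak at −23.3 kb, with a WT score of 168 and a fold enrichment of 8.15. The 25 peaks without a partner had a median width of 333 bp and the other 25 a median of 1299 bp. No distal locus was in the deletion list and not in WT. By peak, 0 of 47 deletion-list distal peaks of these genes lacked a WT peak, beside 1.78% of 15036 in all. The strongest distal peak of each of Col2a1, Col9a1, Col9a3, Col11a1, Col11a2 and Col27a1 was kept, and that of Col9a2 was not.

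Fold enrichment was lower in the deletion list than in WT at most peaks of these genes, as over the genome. The ratio of deletion to WT at the promoter was 0.504 at Col2a1, 0.633 at Col11a2, 0.686 at Col9a1, 0.688 at Col11a1, 0.843 at Col27a1, 0.868 at Col9a2 and 1.07 at Col9a3. The median was 0.688 for the 7 and 0.692 for 9864 promoters marked in both lists, with quartiles of 0.62 and 0.765. Col2a1 lay below the lower quartile, with 5.29% of promoters at a lower ratio, and Col9a3 above the upper one, with 98.1% lower. The Col9a3 ratio covers only the peak within 1 kb of the TSS, with folds of 5.65 in WT and 6.02 in the deletion. The next WT peaks in that gene, at +2.4 kb (fold 6.61) and +3.8 kb (3.95), had no deletion-list peak. At the 25 distal peaks found in both lists the median ratio was 0.679, beside 0.703 over 11669 such peaks. It was 0.35 at the Col11a1 peak at −30.2 kb, 0.493 at the Col2a1 peak at −44.8 kb and 0.644 at the Col2a1 peak at −22.5 kb. It was above 1 at 3 peaks, those of Col9a1 at +18.6 kb (1.04) and +54.5 kb (1.3) and that of Col27a1 at +97.0 kb (1.66). Each genotype had 1 library, so that genotype and library cannot be told apart.

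**Figure D5:**
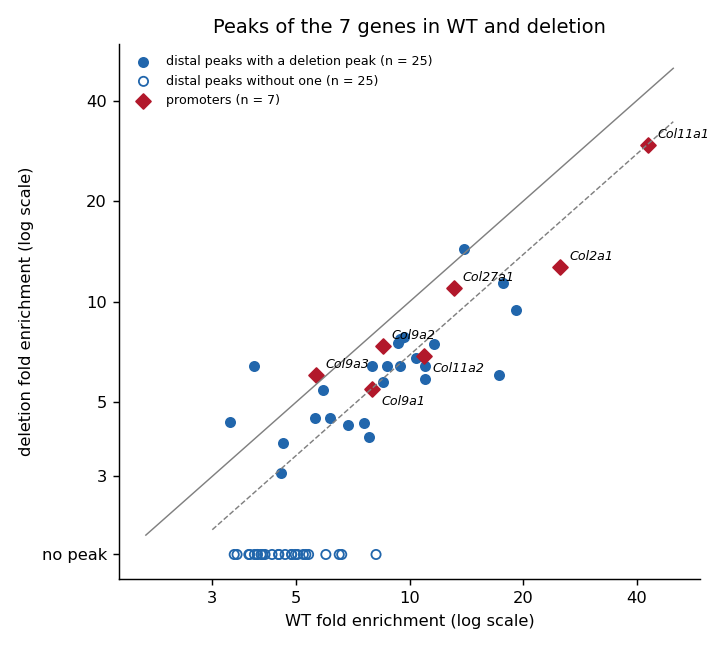
Fold enrichment at the summit in the deletion list against that in WT, both on log scales, for the promoters (diamonds) and WT distal peaks (circles) of the 7 genes, with open circles for distal peaks without a deletion peak. The solid line marks equal values and the dashed line the median ratio of 0.692 over all shared promoters, and the 25 open circles lie at WT values of 3.43 to 8.15.

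The chondrocyte H3K27ac lists were compared peak by peak around the 7 genes. By distance from the TSS, within 1 kb, 48 of 82 replicate 2 peaks had a replicate 1 peak (58.5%) and 30 of 39 replicate 1 peaks had a replicate 2 peak (76.9%). Of 66 WT peaks, 56 had a replicate 2 peak (84.8%). At Col2a1, 9 of 23 replicate 2 peaks had a partner in replicate 1 and 20 of 23 in WT. At Col11a1, 5 of 6 replicate 2 peaks had one in replicate 1, all but the promoter peak. At Col11a2, 3 of 10 did. These counts by distance were made only around the 7 genes and have no share over all genes beside them. By overlap between mm9 lists, 25 of 50 WT distal peaks of these genes had no replicate 1 peak, beside 54.5% of all WT distal peaks. In the other direction, 11 of 28 replicate 1 distal peaks had no WT peak (39.3%), beside 37.4% of all in that list. Both shares were near those over all distal peaks.

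The 5 genes whose covered share across the 5 mm9 lists was nearest to that of Col2a1 were Hoxa3, Col1a1, Hoxc6, Tbx2 and Tenc1, at Euclidean distances of 17.4 to 38.4 percentage points among 13956 genes. Col1a1, the main collagen of skin and bone, was covered to 95.4% in WT, 89.5% in the deletion list and 9.6% in replicate 1. It was covered to 0% in the fibroblast list, although the paper describes fibroblast peaks at this gene.

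The wider collagen pathway differed from the cartilage collagens in fibroblasts. Of 28 genes for collagen modification, folding, secretion, processing and crosslinking, fibroblasts marked 21 promoters, WT 27, the deletion list 26, replicate 1 20 and H3K4me2 26. Replicate 2 marked 20 of the 23 with a GRCm38 position. Serpinh1, the collagen chaperone, was covered over 45.8% of its span in fibroblasts and 57.3% in WT, and P4hb, a subunit of prolyl hydroxylase, over 17.0% and 18.9%. The 6 marked in WT and not in fibroblasts were Plod1, Glt25d2, Adamts3, Pcolce, Comp and Matn3, of which Comp and Matn3 also stand in the list of chondrocyte markers. Pcolce lacked a fibroblast peak only within 1 kb of its gene start. Fibroblast peaks covered 45.6% of its span and WT peaks 56.7%. At Plod1, Glt25d2, Adamts3, Comp and Matn3 the share under fibroblast peaks was 0%. Among 10 connective tissue collagens, fibroblasts marked 7, those of types V, VI, XII and XIV, and WT all 10. The members' 0 of 7 stands beside these counts as a description, with no test.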

How the data were processed

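Peak lists from ChIP-Seq of 6 libraries were used as the authors deposited them. According to the methods and labels, fastp cleaned the reads, Bowtie2 2.4.4 placed them on mm9 and MACS2 2.2.4 called peaks. The lists of replicate 1, H3K4me2 and fibroblasts have the 5 columns of older MACS output, and the release and settings behind them are not given in the sources used here. The deposited score ranks peaks within a list. The narrowPeak lists (replicate 2, WT, deletion) also hold the deposited fold enrichment ratio and the −log10 q and −log10 p of each summit, and the score-only lists start at a score of 50. Folds, scores and widths depend on depth, which is unknown, and on the caller release.

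Gene positions were those of GENCODE vM1 for mm9 and RefSeq GRCm38.p6 for replicate 2, matched by symbol for 18200 genes. With GRCm38 positions replicate 2 marked 43.1% of these promoters and with mm9 positions 6.24%. No coordinate was converted. Only chromosomes 1 to 19 and X were used, and peaks sharing 1 bp or more were counted as overlapping. Peaks were assigned to a gene as promoter, body or flank, and called distal unless within 1 kb of a protein-coding gene start. Sequences came from the mm9 genome and RefSeq promoters.

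All 7 genes are named by rule, as were the strongest WT distal peak of each and the 5 genes nearest to Col2a1. From the other gene lists, examples were named after their values were seen. The members, lists and alternatives were chosen with earlier results of these data known. No test was run between groups. Overlap counts were checked against bedtools 2.31.1 and tested on simulated data. The software was Python 3.11.15 with scipy 1.17.1, pandas 2.3.3, numpy 2.4.6 and matplotlib 3.10.9.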

Additional observations from a re-analysis of the deposited data

How the results depend on the processing

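Of 103 recomputed values, 80 stayed within the limits set and 23 did not, and 0 changed direction. With the higher-scoring 50% of each list, distal peaks of the 7 genes numbered 8 in replicate 1 (28 as reported), 23 in replicate 2 (69), 9 in H3K4me2 (47), 2 in fibroblasts (4), 19 in WT (50) and 10 in the deletion list (47). H3K4me2 then marked 1 promoter instead of 5, and 100% of replicate 1 distal peaks were without a fibroblast peak. The median covered share in H3K4me2 was then 0%. With peaks under 1 kb apart merged, distal peaks numbered 20 in the deletion list, 27 in WT and 35 in replicate 2. A flank of 25 kb gave 31 in H3K4me2, and one of 100 kb gave 8 in fibroblasts. With equal numbers of top peaks, H3K4me2 marked 0 promoters, 21.4% of replicate 1 distal peaks had an H3K4me2 peak and 28.1% of WT distal peaks were without a deletion-list peak. With 50% reciprocal overlap the last 2 shares were 28.6% and 68.0%. With WT instead of replicate 1, 44.0% had an H3K4me2 peak. With a window of 2 kb, any transcript start or any coding start, fibroblasts marked 1 promoter. Leaving out either replicate, the chondrocyte H3K27ac count was 5 to 7. The coding start and the limit to WT promoter peaks under 5 kb were added after seeing the data. No paired analysis was possible because the groups compared share fewer than 2 replicate numbers. A locus without a peak may lie below the calling threshold of its list, since depth is unknown.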

Other observations

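The regions of the 7 genes also hold promoters of neighbours, which were kept out of the comparisons. The Ogfr promoter, at −7.7 kb from Col9a3, was marked in all 5 mm9 lists and ranked in the highest-scoring 2.81% of fibroblasts and 6.35% of WT. The Ring1, H2-Ke6, Rxrb and Slc39a7 promoters, around −10.8 kb from Col11a2, formed 1 locus in all 5 mm9 lists and ranked in the highest-scoring 0.707% of WT, above the Col11a2 promoter at 27.8%. The Tmem106c promoter, at +40.4 kb from Col2a1, was marked in the 4 mm9 chondrocyte lists and not in fibroblasts.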
